A study of Mus musculus with 72 samples.

Results

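Solute carriers and ABC transporters are the membrane proteins that move transmitters, amino acids, sugars, ions and drugs into and out of cells and organelles. This section describes 29 such genes, 5 of them at low level, among the 1266 genes measured in mouse cortex. They were chosen by symbol alone, from the genes beginning with Slc, or with Abc and a family letter, leaving out Slc2a1, Abca1, Abcb1a and Abcg2. The cortex came from 36 mice aged 7.5 months, all of which carried the 5xFAD transgenes, human amyloid precursor protein and presenilin genes with familial Alzheimer mutations that give rise to plaques. There were 12 mice with 5xFAD alone (called 5xFAD below), 12 with 5xFAD and the M28L variant of Plcg2 (M28L), and 12 with 5xFAD and the P522R variant of Plcg2 (P522R). Each genotype had 6 females and 6 males, which makes 6 groups. Every control thus carries the transgenes too, and the cortex was measured whole, so fewer cells of a type and less RNA per cell cannot be told apart.

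Cortical transporters divide labour between cells. Astrocytes clear glutamate from the synapse through Slc1a2 and Slc1a3, neurons refill vesicles through the Slc17, Slc18 and Slc32 families, and the chloride carriers Slc12a2 and Slc12a5 work in opposite directions to set whether GABA inhibits. Mitochondrial Slc25 carriers exchange nucleotides and amino acids with the cytosol, and Slc2a5 and Slc11a1 are best known from microglia and macrophages, the phagocytes of the tissue.

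Of the genes called in the P522R comparison, 4 with large differences are shown here by the 250 bases before their RefSeq start, on the gene's own strand in build GRCm38.p6. Slc12a5 and Slc18a3 had the largest rises among the 24 genes of higher level, and Slc32a1 and Slc25a4 were the falls. The Slc12a5 starts lie at chr2:164960596-164960845 and chr2:164967738-164967987, both on the plus strand. The others lie at chr14:32464851-32465100 on the minus strand (Slc18a3), chr2:158610508-158610757 on the plus strand (Slc32a1) and chr8:46211063-46211312 on the minus strand (Slc25a4). Capitals mark a GC box, the letters GGGCGG on either strand.
Slc12a5 first start: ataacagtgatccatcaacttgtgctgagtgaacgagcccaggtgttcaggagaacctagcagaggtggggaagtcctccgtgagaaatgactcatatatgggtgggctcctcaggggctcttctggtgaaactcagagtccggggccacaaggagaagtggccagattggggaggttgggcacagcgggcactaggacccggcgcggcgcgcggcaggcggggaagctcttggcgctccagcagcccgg
Slc12a5 second start: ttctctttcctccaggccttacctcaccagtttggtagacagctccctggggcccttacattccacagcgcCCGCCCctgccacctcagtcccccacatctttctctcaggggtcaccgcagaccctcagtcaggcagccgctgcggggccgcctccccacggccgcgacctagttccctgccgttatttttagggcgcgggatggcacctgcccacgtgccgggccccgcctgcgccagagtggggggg
Slc18a3: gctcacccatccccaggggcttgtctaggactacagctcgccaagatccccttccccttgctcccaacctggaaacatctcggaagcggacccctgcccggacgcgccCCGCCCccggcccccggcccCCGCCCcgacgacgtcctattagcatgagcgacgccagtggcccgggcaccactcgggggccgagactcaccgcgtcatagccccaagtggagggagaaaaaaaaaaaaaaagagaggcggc
Slc32a1: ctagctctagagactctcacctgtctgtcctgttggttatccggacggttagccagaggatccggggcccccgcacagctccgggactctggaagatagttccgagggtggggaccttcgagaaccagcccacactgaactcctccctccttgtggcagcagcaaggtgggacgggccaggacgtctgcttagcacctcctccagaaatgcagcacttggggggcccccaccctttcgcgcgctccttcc
Slc25a4: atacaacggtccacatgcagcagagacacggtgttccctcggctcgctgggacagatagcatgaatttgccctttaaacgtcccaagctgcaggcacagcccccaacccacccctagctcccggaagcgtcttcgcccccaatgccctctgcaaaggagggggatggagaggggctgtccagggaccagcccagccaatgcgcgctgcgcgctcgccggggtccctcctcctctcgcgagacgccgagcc

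A GC box was found 2 times before Slc18a3, once before the second start of Slc12a5, and not before its first start, Slc32a1 or Slc25a4. Of all 32851 promoters in the table, 32.7% held one in the same window, as did 15 of 31 promoters of the 25 member genes listed there. The letters CCAAT, on either strand, occurred 2 times before Slc25a4 and once before the first start of Slc12a5, and 33.8% of all promoters held them. The letters TATAAA, present in 12.4% of all promoters, were in none of these 5 windows. All 5 windows were rich in G and C, between 61.2% and 67.2% against a median of 52.4% over all promoters. These matches are a description of the letters in the windows.

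Levels are the deposited log2 values, and differences between groups are differences of these. On the nCounter platform each probe captures its transcript with its own efficiency, so a level is not set against another gene's. Over all mice, 24 of the 29 genes had a mean log2 value of at least 5 and were described in full. Mean levels were 14.10 for Slc1a2, 12.29 for Slc1a3 and 9.51 for Slc1a1, the glutamate uptake carriers. They were 12.39 for Slc17a7, 10.49 for Slc32a1, 7.13 for Slc17a6 and 5.57 for Slc18a3, which load vesicles. Among ion carriers they were 11.91 for Slc12a5, 11.78 for Slc8a1, 11.30 for Slc4a10, 9.94 for Slc12a2, 8.75 for Slc24a3 and 5.20 for Slc9b2. The metabolite carriers Slc25a4, Slc25a12, Slc25a17 and Slc2a5 had means of 13.20, 10.77, 8.91 and 7.71. The amino acid carriers Slc38a1 and Slc7a8 had means of 10.51 and 8.71. The remaining means were 6.66 for Abcc8, 9.88 for Abce1, 6.32 for Slc46a1, 5.56 for Slco2b1 and 5.19 for Slc11a1. The genes nearest the threshold were Slc11a1 and Slc9b2 just above it and Abcc3 (4.99) just below it.

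Recovered totals per mouse and panel ran from 237563 to 1957325 counts. On the larger panel, of 757 genes, the median total was 1137287 in 5xFAD females, 1104031 in M28L females and 1802005 in P522R females, but 1630026, 1665497 and 1695632 in the males of these genotypes. On the smaller panel, of 509 genes, it was 319586, 277910 and 592159 in those females and 593008, 630334 and 575260 in the males, with 1 P522R male at 259284. The smaller panel holds Slc1a1, Slc1a2, Slc4a10, Slc11a1, Slc18a2, Slc18a3, Slc32a1, Slc6a3 and Slc6a4, and the part of the totals in the sex and P522R differences was not tested. The 4 pan-neuronal markers measured were present in every group, with a summed log2 level from 14.83 to 15.93. It ran from 14.95 to 15.31 in 5xFAD females and from 15.41 to 15.64 in P522R females. In males it ran from 15.55 to 15.60 in 5xFAD and from 15.69 to 15.93 in P522R. P522R and 5xFAD mice thus did not overlap in this sum in either sex. A summed log2 level is the log2 of the markers' summed linear values, so the brightest markers weigh most in it. Each mouse was measured once, so the p-values measure the spread between mice, technical spread included.

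The first question was how the P522R mice differed from mice with 5xFAD alone. Of the 29 transporters, 22 passed the test (limma, Benjamini-Hochberg over 1266 genes, adjusted p under 0.05), 20 higher and 2 lower in P522R. Among all genes 65.4% passed, 40.5% higher and 24.9% lower, so a call was common in this comparison. The median difference was 0.28 over the 29 transporters, 0.21 over the 24 of higher level and 0.08 over all genes. None of the 18 called differences among the 24 genes changed sign under the alternatives run. Without a term for sex 12 of the 29 transporters passed, and Slc32a1, Slc1a1, Slc24a3, Abcc8, Slc25a12, Slc1a2, Slc17a7 and Slc7a8 were among those that no longer did.

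**Figure D1:**
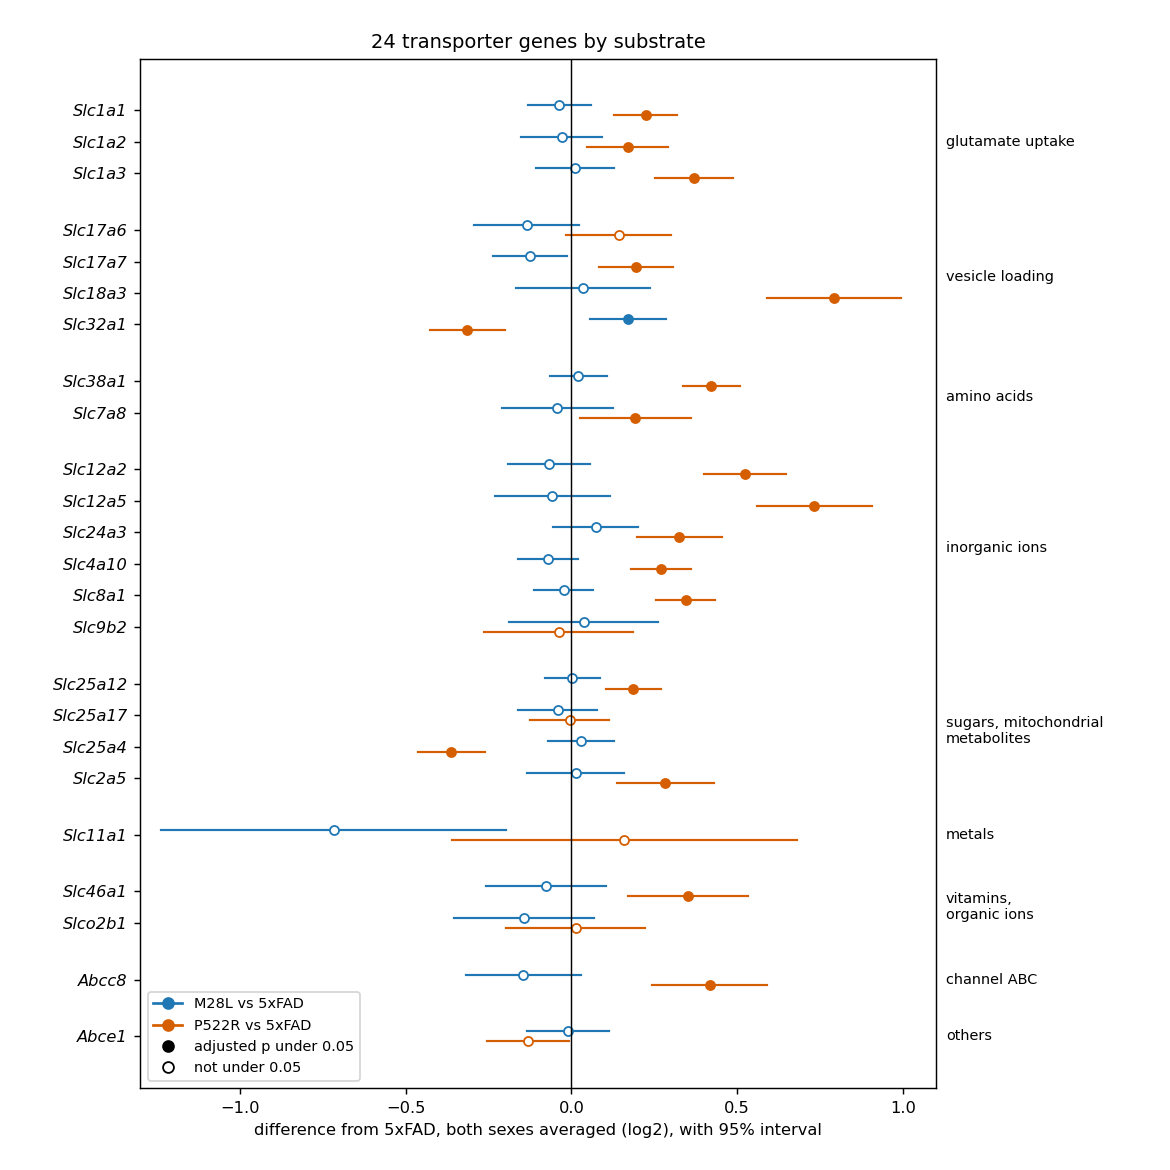
Differences in log2 level from 5xFAD mice, both sexes averaged, for the 24 transporter genes of higher level, grouped by substrate, with points for the estimate and lines for the 95% interval (12 mice per genotype). P522R points lie to the right of 0 for most genes, with Slc32a1 at -0.31 and Slc25a4 at -0.36 to the left, and the filled M28L point is Slc32a1 at 0.17.

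All 3 glutamate uptake genes rose in P522R when the sexes were averaged, where 40.5% of all genes were called higher. Slc1a3, the astrocyte transporter GLAST, was 12.53 on average in P522R mice against 12.16 in 5xFAD mice, a difference of 0.37 ± 0.058 (SE, adjusted p = 8.97e-07). Slc1a3 had lowest, median and highest values of 11.79, 11.93 and 12.03 in 5xFAD females, 11.50, 11.95 and 12.31 in M28L females and 12.21, 12.33 and 12.64 in P522R females. The males had 12.30, 12.40 and 12.51 in 5xFAD, 12.39, 12.43 and 12.48 in M28L and 12.53, 12.70 and 12.82 in P522R. Every P522R mouse thus lay above every 5xFAD mouse of its sex. Slc1a1, the neuronal carrier EAAC1, rose by 0.22 (adjusted p = 9.03e-05). Slc1a2, the main astrocytic carrier GLT-1, rose by 0.17 (adjusted p = 0.0131), a call that was lost under quantile normalization (0.07), housekeeping centring (0.14) and a replicate block (0.16). Panel-wise centring, which centres each mouse within each panel, gave 0.35 for Slc1a1 and 0.30 for Slc1a2. Within females all 3 passed, and within males Slc1a3 did (0.28), while Slc1a1 differed by 0.14 (adjusted p = 0.0863) and Slc1a2 by 0.02 (adjusted p = 0.889), and no interaction with sex passed for them. Of the 5 astrocyte markers measured, Aldh1l1 and Aqp4 were called higher and S100b lower in P522R. Their summed log2 level ran from 13.08 to 13.34 in 5xFAD females and from 12.60 to 13.56 in P522R females. In males it ran from 12.79 to 13.17 in 5xFAD and from 12.44 to 13.10 in P522R. Their part in the result was not tested.

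The vesicular genes did not move together. Slc18a3, which loads acetylcholine, rose by 0.79 ± 0.0996 (SE, adjusted p = 1.68e-08), that is 1.73-fold, and all 12 P522R mice lay above the 5xFAD mean of their sex. Slc18a3 had lowest, median and highest values of 4.56, 4.72 and 4.91 in 5xFAD females, 4.58, 4.84 and 5.43 in M28L females and 5.60, 5.90 and 6.01 in P522R females. Among males the values were 5.63, 5.73 and 6.39 in 5xFAD, 5.37, 5.77 and 5.97 in M28L and 6.02, 6.38 and 6.55 in P522R. The P522R females stood clear of the other females. The P522R males lay above all M28L males but overlapped the 5xFAD males. In recovered counts, the range over all mice of Slc18a3 was 13 to 111, so counting error is a larger part of its spread than in the brighter genes.

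Slc32a1, which loads GABA and glycine into vesicles, went the other way, by -0.31 ± 0.056 (SE, adjusted p = 8.43e-06), that is 1.24-fold lower, and by -0.18 under panel-wise centring. Slc32a1 had lowest, median and highest values of 9.90, 10.04 and 10.12 in 5xFAD females, 10.12, 10.28 and 10.47 in M28L females and 9.53, 10.02 and 10.17 in P522R females. In males they were 10.95, 11.02 and 11.17 in 5xFAD, 11.02, 11.13 and 11.25 in M28L and 10.29, 10.47 and 10.74 in P522R. The P522R males lay below all other males, whereas the P522R females overlapped the 5xFAD females. Of the 5 inhibitory neuron markers measured, Pvalb, Npy and Calb2 were called lower in P522R, at -0.52, -0.44 and -0.34, and Dlx2 was called higher at 0.58. The summed log2 level of those markers ran from 11.49 to 11.66 in 5xFAD females and 11.07 to 11.37 in P522R females, and from 12.02 to 12.10 in 5xFAD males and 11.39 to 11.70 in P522R males. Their part in the result was not tested. Slc17a7, the vesicular glutamate carrier of cortical excitatory neurons, rose by 0.19 (adjusted p = 0.00246), and this call was lost under quantile normalization (0.11), housekeeping centring (0.16) and the replicate block (0.16). Slc17a6, the related carrier typical of subcortical neurons, differed by 0.14 (adjusted p = 0.104) and passed in a fit of only the genotypes compared (adjusted p = 0.0364).

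**Figure D2:**
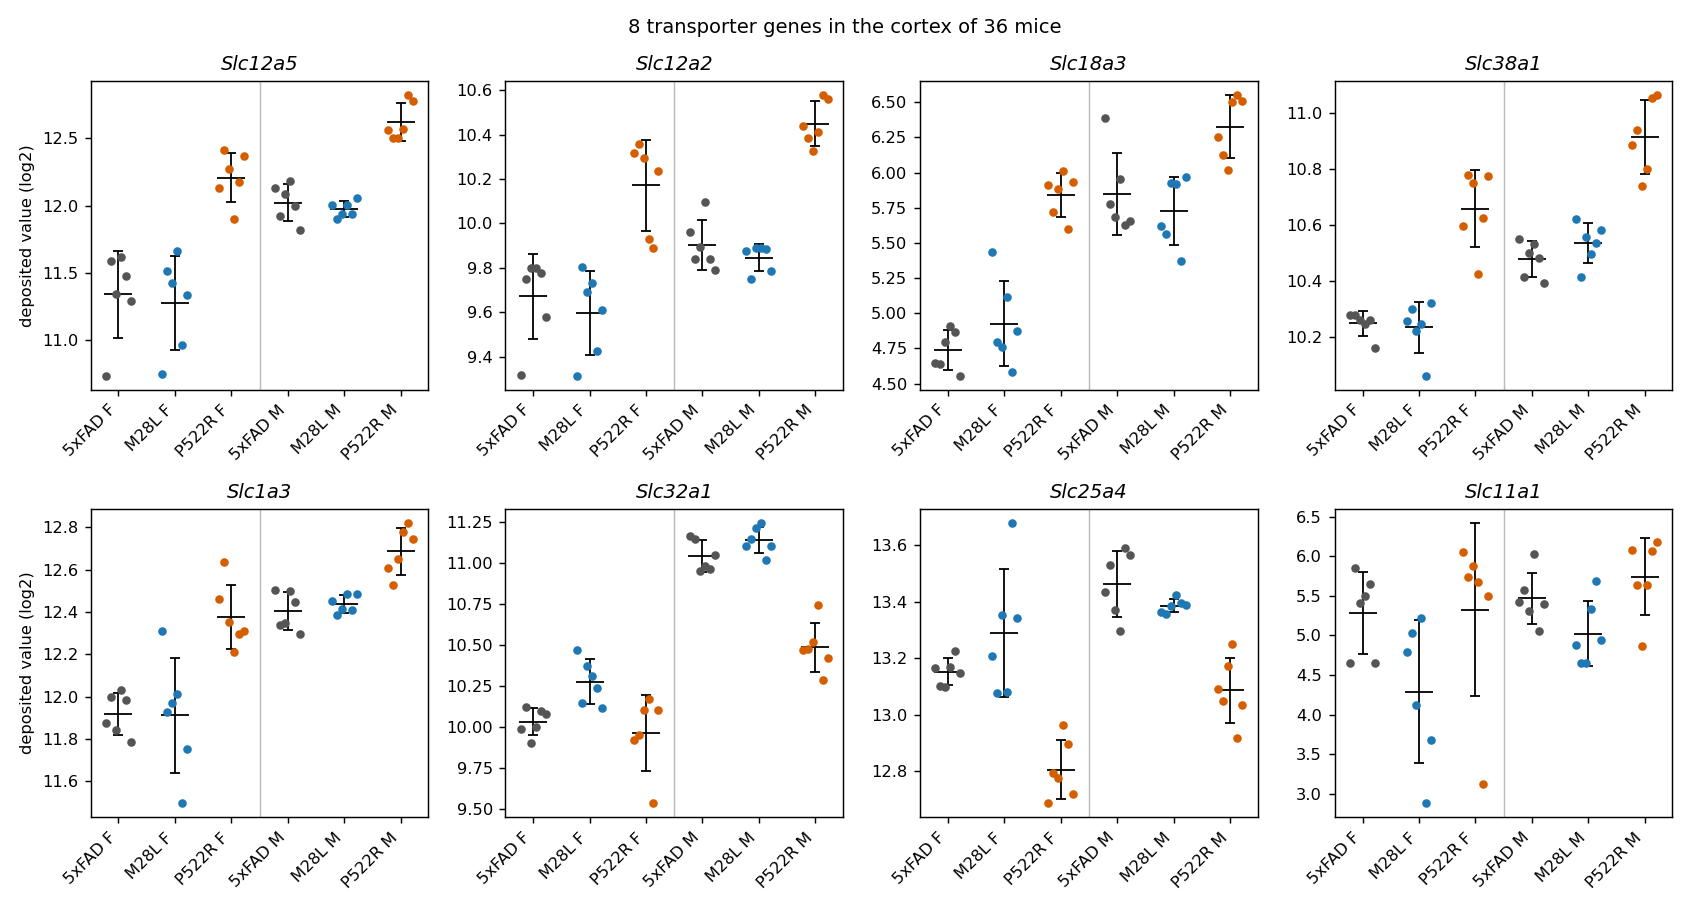
Deposited log2 values of 8 transporter genes in each of the 36 mice (points), with the mean and SD of each group of 6 (bars), females left and males right of the grey line. In Slc12a5, Slc12a2, Slc38a1 and Slc1a3 all P522R mice lie above, and in Slc25a4 all lie below, the 5xFAD mice of their sex, and 1 P522R female stands apart at 3.13 in Slc11a1.

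Both amino acid carriers rose, where 40.5% of all genes were called higher. Slc38a1, which carries glutamine into neurons, had the smallest adjusted p of all the transporters, with a difference of 0.42 ± 0.042 (SE, adjusted p = 1.20e-10). Its group means ± SD (n = 6 each) were 10.25 ± 0.045 in 5xFAD females, 10.23 ± 0.092 in M28L females and 10.66 ± 0.14 in P522R females. The males had 10.48 ± 0.064, 10.53 ± 0.072 and 10.91 ± 0.13 in the same order. P522R mice did not overlap 5xFAD mice in either sex. Slc7a8, an exchanger of large neutral amino acids, differed by 0.19 with an adjusted p of 0.0403, which was lost under 6 of the alternatives that kept all mice, among them median centring (0.16) and the replicate block (0.16), and when any 1 of 13 mice was left out.

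Of the 6 carriers of inorganic ions, 5 were called higher and none lower, where 40.5% of all genes were called higher and 24.9% lower. Slc12a5, the neuronal chloride extruder KCC2, rose by 0.73 ± 0.085 (SE, adjusted p = 3.27e-09), that is 1.66-fold. Slc12a5 had lowest, median and highest values of 10.74, 11.41 and 11.62 in 5xFAD females, 10.75, 11.38 and 11.66 in M28L females and 11.90, 12.22 and 12.41 in P522R females. Among males the values were 11.82, 12.04 and 12.18 in 5xFAD, 11.90, 11.97 and 12.06 in M28L and 12.50, 12.57 and 12.82 in P522R. P522R mice were above the mice of both other genotypes in each sex with no overlap. Slc12a2, the chloride importer NKCC1, rose as well, by 0.52 ± 0.061 (SE, adjusted p = 3.61e-09), that is 1.44-fold. Slc12a2 had lowest, median and highest values of 9.32, 9.76 and 9.80 in 5xFAD females, 9.31, 9.65 and 9.81 in M28L females and 9.89, 10.26 and 10.36 in P522R females. In males they were 9.79, 9.87 and 10.10 in 5xFAD, 9.75, 9.88 and 9.89 in M28L and 10.32, 10.43 and 10.58 in P522R. Thus the transcripts of both chloride carriers, the one that imports and the one that exports, were higher in P522R, and again without overlap in either sex.

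The sodium-calcium exchanger Slc8a1 rose by 0.34 (adjusted p = 2.39e-08) and the potassium-dependent exchanger Slc24a3 by 0.33 (adjusted p = 3.09e-05). The bicarbonate carrier Slc4a10 rose by 0.27 (adjusted p = 2.67e-06). Slc9b2, a sodium-proton exchanger, differed by -0.04 with a 95% interval from -0.26 to 0.19.

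Slc25a4, the ADP/ATP carrier ANT1 of the inner mitochondrial membrane, was the larger of the 2 falls, at -0.36 ± 0.05 (SE, adjusted p = 7.88e-08), that is 1.28-fold lower. Slc25a4 had lowest, median and highest values of 13.10, 13.16 and 13.23 in 5xFAD females, 13.08, 13.28 and 13.68 in M28L females and 12.69, 12.79 and 12.96 in P522R females. The males had 13.30, 13.48 and 13.59 in 5xFAD, 13.36, 13.39 and 13.42 in M28L and 12.92, 13.07 and 13.25 in P522R. All 12 P522R mice lay below every mouse of the other genotypes of their sex. The mitochondrial aspartate-glutamate carrier Slc25a12 rose by 0.19 (adjusted p = 0.000158), lost under housekeeping centring (0.15), and the peroxisomal carrier Slc25a17 differed by -0.0047. Slc2a5, a fructose carrier, rose by 0.28 (adjusted p = 0.000792). Among the other substrates, Abcc8, the sulphonylurea receptor subunit of potassium channels, rose by 0.42 (adjusted p = 7.02e-05) and Slc46a1, the proton-coupled folate carrier, by 0.35 (adjusted p = 0.000821). Slco2b1, an organic anion carrier, differed by 0.01, a sign that turned under each of the rescalings, and Slc11a1, the phagosomal metal carrier, by 0.16, and neither passed. Abce1, which recycles ribosomes and carries no substrate, differed by -0.13 (adjusted p = 0.0565) and was called lower under median centring (-0.17) and panel-wise centring (-0.18), and when any 1 of 8 mice was left out. Of the 7 microglial markers measured, 2 were higher and 1 lower in P522R. Their summed log2 level ran from 12.92 to 13.37 in 5xFAD females, 12.73 to 13.77 in P522R females, 12.89 to 13.26 in 5xFAD males and 12.68 to 13.42 in P522R males. Their part in the changes of Slc2a5 and Slc46a1 was not tested.

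P522R mice and 5xFAD mice did not overlap in 11 transporters in females, 10 higher and 1 lower, where 26.9% of all genes did not overlap and 60.2% were called. In males they did not overlap in 9, 7 higher and 2 lower, against 32.8% of all genes without overlap and 50.6% called. Slc12a5, Slc12a2, Slc38a1, Slc1a3 and Slc25a4 were apart in both sexes.

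Related genes from lists outside the transporters moved in part alongside. The ion pump list was divided into kinds of pump after its values were seen. Among all genes 40.5% were called higher and 24.9% lower in P522R. Of the 4 pan-neuronal markers 3 were called higher and 0 lower, and of the 2 excitatory neuron markers 2 and 0. Within males, 2 pan-neuronal markers were called higher and 1 lower. The part of these markers in the rises of Slc12a5, Slc17a7, Slc1a1 and Slc38a1 was not tested. All 6 sodium and calcium pump genes measured rose, from 0.28 for Atp1b1 to 0.58 for Atp2b3. The 12 subunits of the vesicular proton pump, which powers vesicle loading, were divided, with 2 called higher and 5 lower, from -0.70 for Atp6v0e2 to 0.40 for Atp6v1a. Among 6 genes of glutamate and GABA metabolism, 4 were called higher and 1 lower. Gad1 and Gad2, which make GABA, rose by 0.52 and 0.48 and Abat, which degrades it, differed by -0.22. With the sexes averaged, the genes for making GABA were thus called higher in P522R and the vesicular GABA carrier Slc32a1 lower. This carrier differed by -0.07 in females and by -0.56 in males. Of the 4 transporters left out by the rule, 1 was called higher and 1 lower.

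The second question was how the M28L mice differed from 5xFAD mice. Of the 29 transporters 1 passed, Slc32a1, where 10.3% of all genes did, 4.66% higher and 5.61% lower. The median difference was -0.03 over the 29 transporters and 0.0006 over all genes. Slc32a1 was 10.71 on average in M28L mice against 10.54 in 5xFAD mice, a difference of 0.17 ± 0.056 (SE, adjusted p = 0.0444), with 11 of 12 M28L mice above the 5xFAD mean of their sex. This is the opposite sign to P522R. The call was lost under panel-wise centring (0.07), without a trend in eBayes (adjusted p = 0.0522), without a term for sex, with the replicate block (0.10) and when any 1 of 15 of the 36 mice was left out. These were 5xFAD females 1180, 1190 and 1248, 5xFAD males 1182, 1268, 1269 and 1270, M28L females 12, 14-F8 and 16, and M28L males 9, 10, 11, 15 and 17, and the difference then ran from 0.15 to 0.19 over all such fits. No inhibitory neuron marker but Calb2 (0.54) was called in M28L, and its part was not tested.

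Slc11a1 showed the largest difference from 5xFAD in M28L, -0.72 ± 0.26 (SE), with an adjusted p of 0.0672 that missed the threshold. Slc11a1 had lowest, median and highest values of 4.65, 5.45 and 5.85 in 5xFAD females, 2.88, 4.46 and 5.22 in M28L females and 3.13, 5.71 and 6.05 in P522R females. Among males the values were 5.06, 5.41 and 6.03 in 5xFAD, 4.65, 4.91 and 5.68 in M28L and 4.87, 5.85 and 6.18 in P522R. The groups overlapped in both sexes, and 1 of 12 M28L mice lay above the 5xFAD mean of its sex. Slc11a1 was called lower under panel-wise centring (-0.82), housekeeping centring (-0.55), in a fit of only the genotypes compared (adjusted p = 0.0266) and without any 1 of 4 mice, 5xFAD female 1253, M28L females 14-F1 and 16 and P522R female 60, the mouse at 3.13. Slc4a10 was called lower under panel-wise centring (-0.17), against -0.07 and an adjusted p of 0.377 as deposited. The recovered counts of Slc11a1 were 4 to 28 in M28L females and 16 to 44 in 5xFAD females. The third smallest p belonged to Slc18a2, a gene of low level, at 0.38 ± 0.15 (SE, adjusted p = 0.101). Summed microglial markers ran from 12.63 to 12.95 in M28L females and from 12.62 to 13.10 in M28L males, with 1 of 7 called higher and 2 lower, and their part in the value of Slc11a1 was not tested.

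For the other transporters of higher level, the M28L differences ran from -0.15 for Abcc8 to 0.07 for Slc24a3. The intervals are narrow for the bright genes: -0.11 to 0.13 for Slc1a3, -0.23 to 0.12 for Slc12a5 and -0.07 to 0.13 for Slc25a4. Within females no transporter passed, where 3.87% of all genes did, and within males none passed, where 2.05% did. At an unadjusted p under 0.05 there were 8 transporters and 250 genes in females, and no transporter and 141 genes in males. In females the smallest adjusted p were 0.0713 for Slc32a1 (0.24), 0.12 for Slc6a4 (-0.85, a gene of low level) and 0.12 for Slc11a1 (-0.99). In males they were 0.661 for Slc18a2 (0.30), 0.685 for Slc25a17 (-0.12) and 0.715 for Slc46a1 (-0.16).

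Set against M28L, the P522R mice share their own values with the comparison above. Here 24 of 29 transporters passed, 22 higher and 2 lower in P522R, against 67.6% of all genes, 41.5% higher and 26.1% lower. Slc32a1 differed by -0.48 ± 0.056 (SE, adjusted p = 2.15e-09) with all 12 P522R mice below the M28L mean of their sex, and by -0.25 under panel-wise centring. Slc11a1 differed by 0.88 ± 0.26 (SE, adjusted p = 0.00313; 0.56 with a pseudocount of 20) and Slc17a6 by 0.28 ± 0.078 (SE, adjusted p = 0.00225), both of which had not passed against 5xFAD. The call of Slc17a6 was lost under panel-wise centring (0.17), housekeeping centring (0.08), the replicate block (0.18) and without a sex term (adjusted p = 0.0530). Slc12a2, Slc12a5 and Slc38a1 had the smallest p, at 0.59, 0.79 and 0.40, and housekeeping centring gave 0.39, 0.59 and 0.20 for them. Centring on the housekeeping genes Gusb and Tbp gave 13 calls in place of 24, and moved the median of all genes from 0.10 to -0.10.

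The third question was whether the variant effects differed between the sexes. For M28L no transporter and 0% of all genes passed the interaction test in limma, at a smallest adjusted p of 0.9997. An unadjusted p under 0.05 was found for 3 of 29 transporters and 34 of 1266 genes. Those 3 were Slc6a4 (-1.14), Slc25a4 (0.22) and Slco2b1 (-0.44), given as the effect in females minus the effect in males. For P522R 7 transporters passed, 5 with the larger value in females and 2 with the larger value in males, against 20.9% of all genes.

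**Figure D3:**
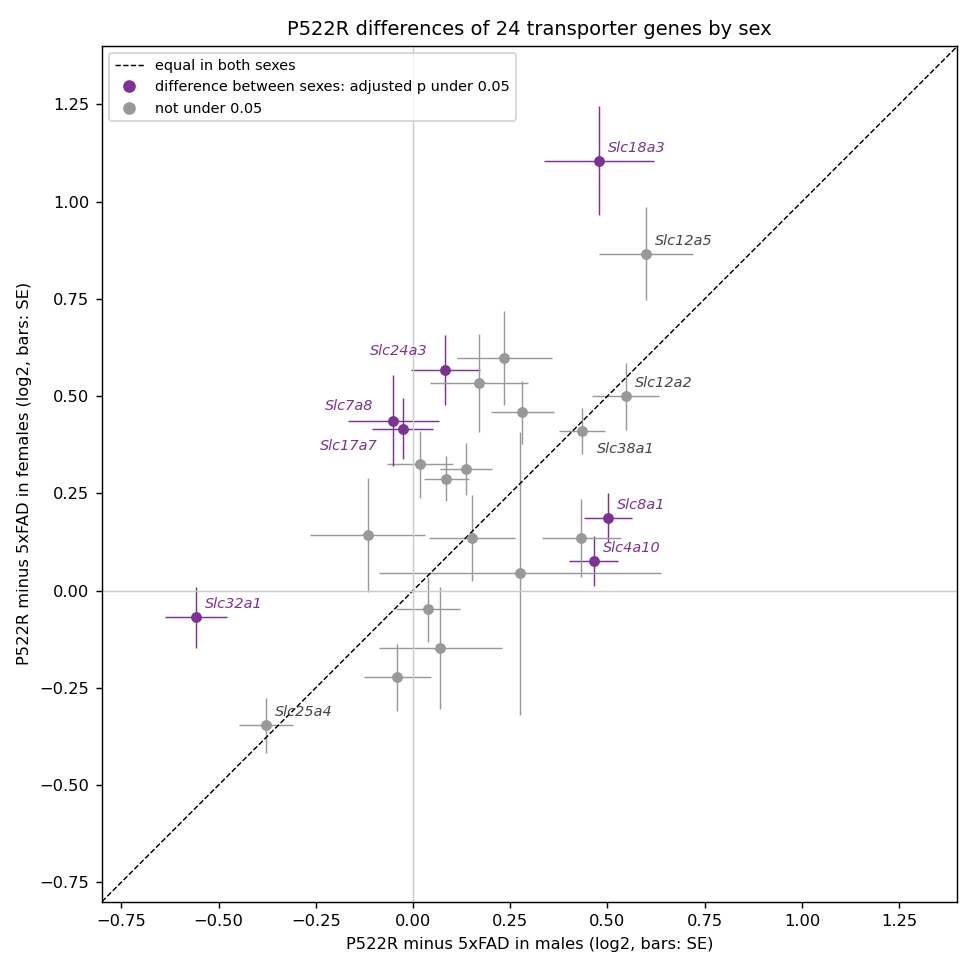
Difference between P522R and 5xFAD mice in males (horizontal) and females (vertical) for 24 transporter genes in log2 units, with SE bars from the limma fit (6 mice per group). The 7 purple genes differed between the sexes: Slc18a3, Slc24a3, Slc7a8, Slc17a7 and Slc32a1 lie above the dashed line of equal effect and Slc8a1 and Slc4a10 below it.

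Among transmitter genes, Slc17a7 was higher by 0.42 in P522R females and differed by -0.03 in P522R males, an interaction of 0.44 ± 0.11 (SE, adjusted p = 0.00415). Slc32a1 differed by -0.07 in females and fell by 0.56 in males (interaction 0.49, adjusted p = 0.00183). Slc18a3 rose in both sexes, by 0.48 in males and by 0.63 more in females (adjusted p of the interaction = 0.0227). Slc7a8 and Slc24a3 rose in females, by 0.44 and 0.57, and differed by -0.05 and 0.08 in males, with interactions of 0.49 and 0.48. The ion carriers Slc4a10 and Slc8a1 had the larger value in males. Slc4a10 differed by 0.08 in females and rose by 0.46 in males (interaction -0.39, adjusted p = 0.00201), and Slc8a1 rose by 0.19 and 0.50 (interaction -0.31). The chloride carriers did not pass, with interactions of 0.27 for Slc12a5 (95% interval -0.08 to 0.61) and -0.05 for Slc12a2 (-0.29 to 0.20). In all, 19 of 29 transporters passed in P522R females, 17 higher and 2 lower, where 60.2% of all genes passed. In P522R males 13 passed, 11 higher and 2 lower, where 50.6% of all genes passed.

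Scale bears on these interactions. The recovered total was higher in P522R than in 5xFAD females and closer to it in males, as given above, and the median interaction over all genes was 0.10. Median centring gave 6 calls among the transporters, 3 with the larger value in females and 3 with the larger value in males, against 7.50% and 12.9% of all genes. Quantile normalization gave 2 and 4, against 8.77% and 10.3%, and housekeeping centring left 1 with the larger value in females, against 4.42% of all genes. Of the genes called for the interaction, Slc18a3, Slc32a1 and Slc4a10 lie on the smaller panel, and panel-wise centring is not given here for it. The part of the totals in the interactions was not tested.

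Between the sexes, averaged over genotypes, 27 of the 29 transporters were lower in females and none was higher, against 86.4% of all genes called, 83.7% lower and 2.69% higher. The median difference was -0.44 over the transporters and -0.38 over all genes, and females had the lower totals in 5xFAD and M28L. After median centring of each mouse, which brought the median of all genes to -0.05, 5 transporters were called higher and 14 lower in females, against 24.2% and 33.4% of all genes. With quantile normalization the counts were 5 and 11 (26.9% and 27.8% of all genes), with panel-wise centring 2 and 12 (23.0% and 26.5%), and with housekeeping centring 1 and 15 (12.1% and 35.4%).

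**Figure D4:**
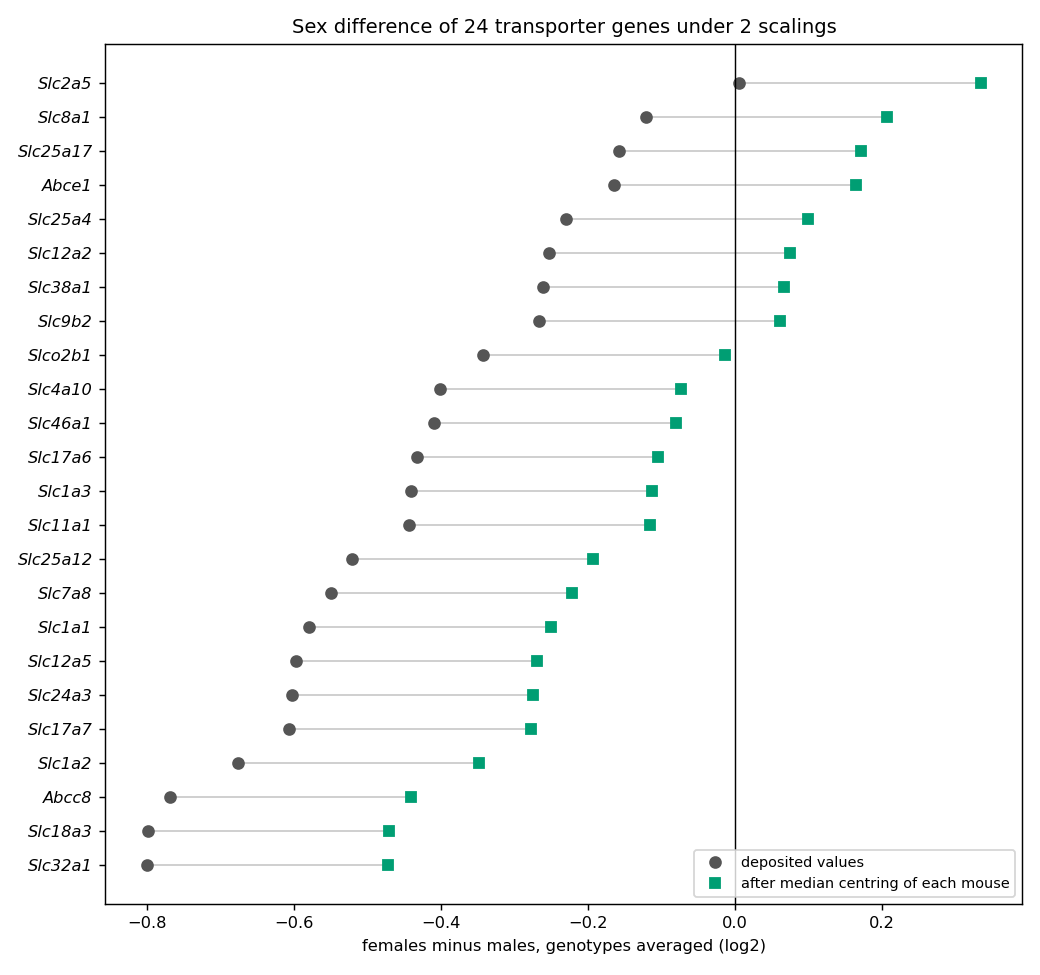
Female minus male difference in log2 level of 24 transporter genes, averaged over 3 genotypes, for the deposited values (grey circles) and after median centring of each mouse (green squares). Slc32a1 stays to the left under both, at -0.80 and -0.47, while Slc2a5 moves from 0.01 to 0.33 and Slc8a1 from -0.12 to 0.21.

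Among the 24 genes of higher level, Slc32a1, the vesicular GABA carrier, had the lowest difference as deposited and after median centring, closely followed by Slc18a3. It differed by -0.80 ± 0.046 (SE, adjusted p = 1.28e-17) and by -0.47 after median centring, and its male and female values did not overlap within any genotype. Slc18a3 differed by -0.80 and -0.47, Abcc8 by -0.77 and -0.44 and Slc1a2 by -0.68 and -0.35. Slc17a7, Slc24a3 and Slc12a5 differed by -0.61, -0.60 and -0.60, and by -0.28, -0.27 and -0.27 after centring. Slc1a1, Slc7a8 and Slc25a12 differed by -0.58, -0.55 and -0.52, and by -0.25, -0.22 and -0.19 after centring. These 10 genes, the ones of the 24 that differed by at least 0.5, passed under both scales and under the other 3 rescalings. Panel-wise centring brought Slc1a1 to -0.11, Slc1a2 to -0.20, Slc18a3 to -0.33 and Slc32a1 to -0.33.

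Their group means show where the gap was widest. Slc1a2 averaged 13.65 ± 0.10, 13.64 ± 0.25 and 13.98 ± 0.23 in 5xFAD, M28L and P522R females and 14.44 ± 0.045, 14.40 ± 0.027 and 14.46 ± 0.12 in the males (SD, n = 6 each). Slc17a7 averaged 12.01 ± 0.18, 11.83 ± 0.14 and 12.42 ± 0.15 in females and 12.73 ± 0.15, 12.65 ± 0.035 and 12.70 ± 0.13 in males. For both genes the P522R females were the nearest of the female groups to the males. Slc24a3 averaged 8.22 ± 0.22, 8.32 ± 0.24 and 8.79 ± 0.083 in females and 9.00 ± 0.082, 9.05 ± 0.0998 and 9.09 ± 0.12 in males. Slc7a8 averaged 8.30 ± 0.20, 8.25 ± 0.44 and 8.74 ± 0.13 in females and 9.01 ± 0.076, 8.98 ± 0.11 and 8.96 ± 0.086 in males. Abcc8 averaged 6.15 ± 0.21, 5.92 ± 0.37 and 6.75 ± 0.14 in females and 6.98 ± 0.16, 6.92 ± 0.0997 and 7.22 ± 0.16 in males. Slc1a1 averaged 9.13 ± 0.082, 9.10 ± 0.17 and 9.44 ± 0.11 in females and 9.77 ± 0.087, 9.73 ± 0.064 and 9.91 ± 0.11 in males. Slc25a12 averaged 10.40 ± 0.11, 10.44 ± 0.13 and 10.69 ± 0.12 in females and 11.01 ± 0.046, 10.99 ± 0.049 and 11.10 ± 0.077 in males.

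Other genes changed sign with the scale. Slc8a1, Slc25a17, Abce1 and Slc25a4 were lower in females as deposited, by -0.12, -0.16, -0.16 and -0.23, and were called higher after median centring, at 0.21, 0.17, 0.16 and 0.10. Slc2a5 was the fifth gene called higher then, at 0.33 against 0.01 as deposited, where it did not pass. Slc38a1, Slc12a2 and Slc9b2 also changed sign, to 0.07, 0.07 and 0.06, without passing. The direction of these 7 genes that were called as deposited therefore depends on the scale chosen.

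The 5 genes of low level are given apart because single counts move their log2 values. Abcc3, an exporter of conjugated anions, had 7 to 64 recovered counts per mouse, and Slc18a2, the vesicular monoamine carrier, had 6 to 52. Slc6a4 and Slc6a3, the reuptake carriers for serotonin and dopamine, had 2 to 27 and 1 to 18 counts, and Slc10a6, a carrier of sulphated steroids, had 1 to 28. Monoamine neurons have their cell bodies outside the cortex. In P522R against 5xFAD, 4 of the 5 passed, all higher, where 65.4% of all genes passed, 40.5% higher and 24.9% lower. These 4 were Slc10a6 (1.45 ± 0.34, adjusted p = 0.000324), Slc18a2 (0.92 ± 0.15, adjusted p = 1.51e-06), Slc6a3 (0.75 ± 0.28, adjusted p = 0.0170) and Slc6a4 (0.54 ± 0.22, adjusted p = 0.0304). The calls of Slc6a3 and Slc6a4 were lost under quantile normalization, where their signs turned (-0.33 and -0.13), and without a sex term (adjusted p = 0.0588 and 0.124). That of Slc6a3 was also lost with a pseudocount of 20 (0.14) and with the replicate block (0.56). That of Slc6a4 was lost without any 1 of 5 mice, 5xFAD female 1189, 5xFAD male 1181, P522R females 24 and 54 and P522R male 30, with differences from 0.43 to 0.49. In P522R against M28L 4 passed, Slc10a6, Slc6a4, Slc18a2 and Abcc3, where 67.6% of all genes did. In females against males 4 passed, Abcc3 being the exception, where 86.4% of all genes did. Against M28L the replicate block ended the calls of Slc6a4 (0.42) and Slc10a6 (0.53), and quantile normalization that of Slc6a4 (0.17). Between the sexes panel-wise centring and quantile normalization ended all 4 calls, and median centring that of Slc10a6 (-0.52). Slc18a2 had a median of 10 counts in 5xFAD females and 37.5 in P522R females, and 20 and 41 in the males, counts that carry the difference in panel totals given above. In log2 level the P522R difference of Slc18a2 in females was 0.81, or 1.75-fold, and P522R and 5xFAD males did not overlap. None of the 5 passed in M28L against 5xFAD, where 10.3% of all genes did. Under housekeeping centring Slc18a2 (0.55) and Slc6a3 (0.73) did, and Slc18a2 also without M28L female 14-F1 or P522R female 60. For P522R against 5xFAD, Abcc3 was called higher with a pseudocount of 20 (0.19) and in a fit of only the genotypes compared (0.29). Abcc3 also passed there without M28L female 20 or P522R female 60. Between the sexes Abcc3 was called lower without M28L female 16 or M28L male 9.

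**Figure D5:**
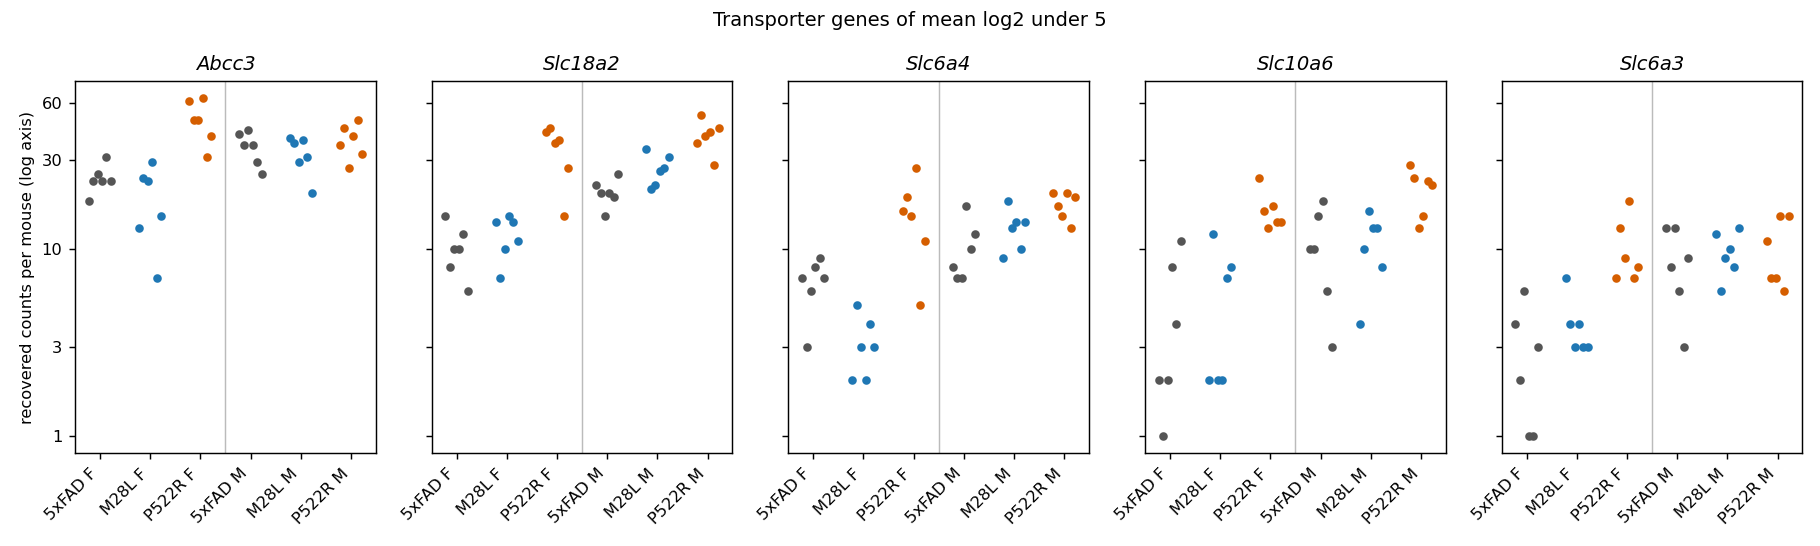
Recovered counts per mouse, on a log axis, of the 5 transporter genes of low level in the 6 groups of 6 mice. 5xFAD females reach down to 1 count in Slc10a6 and Slc6a3, while P522R females start at 13 and 7 counts, with counts not scaled for the higher panel totals of P522R females.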

How the data were processed

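Per the labels, cortical RNA of 36 mice was run on the nCounter Glial and Neuropathology panels, which count fluorescent barcodes by hybridisation without amplification and make 72 records. The deposited log2 values, which join both panels in a column per mouse, had been normalized by the authors; the method is not given in the labels. Of 1517 rows, 251 named no gene and held no value. On the linear scale 100.0% of values were whole multiples, within 0.05 counts, of 1 of 2 steps per mouse, which gave back the counts of a panel of 757 and a panel of 509 genes; which of them is the Glial panel is not labelled.

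Differences were tested on the deposited log2 values with limma 3.58.1 in R 4.3.3, with 6 group means, eBayes with a trend, two-sided p-values and Benjamini-Hochberg adjustment over 1266 genes. Genotype contrasts average the sexes. The fit was tested on simulated data. Members and lists were chosen with earlier results of these data known. Every gene of mean log2 of at least 5 is named; full statistics go to genes called in M28L, genes called with a difference of at least 0.5 in P522R or between the sexes, and otherwise the 3 smallest p. Alternatives were 4 rescalings (median centring, panel-wise, quantile, and housekeeping on Gusb and Tbp), a filter at a mean log2 of 5, a pseudocount of 20, other variance models, fits of only the genotypes compared or without sex, a replicate block, the mice numbered 14 as their mean, and leaving out each mouse.

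Female M28L mice 14-F1 and 14-F8 share an animal number. The chi-square between them was 7.35 per gene in recovered counts, and 34 of 90 pairs of mice within a group were closer. Among M28L females the closer pairs were 14-F1 with 16 (3.61) and 28 with 14-F8 (4.74), and the widest pair reached 71.99. They were kept as 2 mice, which these values do not settle. Promoters are from RefSeq, build GRCm38.p6, which listed 25 of the 29 genes. Some genes that the rule on symbols would take are not reported here; they stayed in the fit and in the counts over all genes.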

Additional observations from a re-analysis of the deposited data

Results flagged for a closer look

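Of 144 combinations of a transporter of higher level and a group of 6 mice, 9 (6.2%) had 1 mouse far from the other 5 by Dixon's test, and chance flags about 1 in 20. In 5xFAD females, mouse 1180 was low in Slc12a5 (10.74 against 11.29 to 11.62) and Slco2b1 (5.14 against 5.47 to 5.64). In the same group mouse 1253 was low in Slc38a1 (10.16 against 10.25 to 10.28) and mouse 1189 was high in Slc7a8 (8.68 against 8.17 to 8.36). In P522R females, mouse 60 was low in Slc11a1 (3.13 against 5.50 to 6.05), mouse 8 was high in Slc8a1 (12.22 against 11.63 to 11.84) and mouse 24 was high in Slc2a5 (8.22 against 7.61 to 7.84). Slc46a1 was low in P522R male 27 (6.35 against 6.68 to 6.85) and high in M28L male 15 (6.52 against 6.29 to 6.36).

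The effect of P522R differed between the sexes, by limma's interaction term, in 7 of 29 transporters, against 20.9% of all genes. As given above, the count changed with the scale chosen. Given as females minus males, the difference was 0.44 for Slc17a7, 0.63 for Slc18a3, 0.48 for Slc24a3, 0.49 for Slc32a1, -0.39 for Slc4a10, 0.49 for Slc7a8 and -0.31 for Slc8a1.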

How the results depend on the processing

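For M28L against 5xFAD, the count of 1 called transporter became 2 with panel-wise centring, 4 with housekeeping centring, 2 with only the genotypes compared, and 0 without a trend, without a sex term or with the replicate block; without each mouse in turn it ran from 0 to 3 (3 without M28L female 14-F1 or P522R female 60). Within females it was 4 under housekeeping centring and 0 to 2 without each mouse (2 without P522R female 60). The 22 calls for P522R against 5xFAD became 12 without a sex term, 18 with the replicate block and 20 to 24 without each mouse, and the 24 against M28L became 13 under housekeeping centring and 24 to 25 without each mouse. Mice of different genotype with the same index number in the labels showed no shared deviation. Of 22 such pairs 1 had a correlation of deviations over 0.1, and the median was -0.07 against 0.0031 for pairs of other index numbers. What the index number stands for cannot be told from these correlations. The 7 interactions with P522R became 1 under housekeeping centring and 6 to 9 without each mouse. The 27 sex calls became 14 with panel-wise centring, 16 with quantile normalization and 16 with housekeeping centring.

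Against M28L, housekeeping centring turned the P522R difference of Slc1a2 to -0.0030 and of Slc25a12 to -0.018. The sex difference turned positive under median, panel-wise, quantile and housekeeping centring for Slc25a4 (0.10, 0.030, 0.10 and 0.034), Slc8a1 (0.21, 0.14, 0.17 and 0.14), Slc12a2 (0.075, 0.0058, 0.088 and 0.011), Abce1 (0.16, 0.095, 0.16 and 0.10) and Slc25a17 (0.17, 0.10, 0.17 and 0.11). It did so under median, quantile and housekeeping centring for Slc38a1 (0.066, 0.068 and 0.0021), under median centring and quantile normalization for Slc9b2 (0.061 and 0.16), under panel-wise centring for Slc4a10 (0.072) and Slc11a1 (0.029), and under quantile normalization for Slco2b1 (0.083). The cause was not tested. Low counts limit the 5 genes of low level, Slc11a1 and Slc18a3.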
